A study of Mus musculus with 4 samples.

Results

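The genes that build cholesterol and fatty acids were examined in cultured mouse mammary tumor cells with and without the stress kinases JNK1 and JNK2. The group was defined by symbol, as 31 named genes of sterol synthesis, of fatty acid synthesis and of the SREBP system that regulates both. A total of 30 of the 31 symbols were analysed among 38713 genes, and Mvd was not analysed here. All 30 passed the filter on low values that left 12998 genes for testing. They comprised 16 sterol synthesis genes, 4 SREBP regulators and 10 fatty acid synthesis genes. The list does not hold every enzyme of either route.

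RNA was sequenced from 4 cell lines, each derived from 1 mammary tumor of a C57BL/6 mouse and each represented by 1 library. All 4 lines came from mice that carried Wap-Cre and Trp53 LoxP/LoxP, and are labelled p53-/-. The 2 JNK_WT lines (numbered 1 and 2) carried no further engineered deletion. The 2 JNK_KO lines (numbered 1 and 3) came from mice that also carried Mapk8 LoxP/LoxP and Mapk9 LoxP/LoxP, the genes for JNK1 and JNK2, and are labelled p53-/- JNK-/-. The Wap promoter is active in secretory luminal cells of the mammary gland from pregnancy on, so deletion begins in that cell type. The cells were passaged and then maintained in medium with serum, which supplies cholesterol and fatty acids. Each value therefore describes a line in culture, and the spread between 2 lines includes every difference between 2 tumors.

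Cholesterol is assembled from acetyl-CoA through mevalonate, farnesyl diphosphate, squalene and lanosterol. The transcription factor SREBP-2, the product of Srebf2, drives most of this route. Fatty acids are built from the same acetyl-CoA by acetyl-CoA carboxylase and fatty acid synthase, and are then desaturated and elongated, with SREBP-1 (Srebf1) as the leading SREBP. Both factors are held in the endoplasmic reticulum by Scap and Insig1 while sterols are plentiful, and are carried to the Golgi and cut free when sterols are scarce. The lactating mammary gland is one of the most lipogenic tissues known, and luminal cells use these enzymes to make milk fat.

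Promoter sequences were examined first, because the genes of both routes share upstream factors. RefSeq promoter windows (GRCm38.p6, from 250 bases before to 50 bases after a start site) were found for 25 of the 30 genes, 33 windows in all, and 6 genes had several windows. No window was given for Fdps, Fdft1, Sqle, Scd1 or Scd2. Both strands were searched for 4 motifs. The CCAAT box (CCAAT), read by the factor NF-Y that works beside the SREBPs, was found in 22 of the 25 genes and in 69.7% of their windows. It was found in 37.4% of all 32851 windows, and in 38.0% of the 12016 windows of the genes tested. The SREBP site in its classical form (TCACNCCAC) was found in 1 of the 33 windows, that of Hmgcs1, and in 1.24% of all windows. The E-box (CACGTG) was found in 6 of the 25 genes and in 21.2% of the 33 windows. It was found in 7.15% of all windows and in 10.0% of the windows of the genes tested. The GC box (GGGCGG) was found in 20 of the 25 genes and in 72.7% of the 33 windows. It was found in 35.7% of all windows and in 63.3% of the windows of the genes tested. The overlapping windows of Scap shared an E-box and a GC box, which were counted in each window. These counts describe letters in a fixed window, not bound sites.

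The stretch of 250 bases before the start site is printed for 4 genes that carry the values described below. Hmgcs1 held the only classical SREBP site, Mvk held the most CCAAT boxes, Insig1 is the feedback target of the SREBPs, and Fasn is the central gene of the fatty acid arm. Sequences run 5′ to 3′ on the strand of the gene, and capitals mark the SREBP site (TCACCCCAC) and the CCAAT box in either orientation (CCAAT or ATTGG). They lie at chr13:119690101-119690350 (plus strand) for Hmgcs1, chr5:114444019-114444268 (plus strand) for Mvk, chr5:28071162-28071411 (plus strand) for Insig1 and chr11:120824548-120824797 (minus strand) for Fasn.
Hmgcs1: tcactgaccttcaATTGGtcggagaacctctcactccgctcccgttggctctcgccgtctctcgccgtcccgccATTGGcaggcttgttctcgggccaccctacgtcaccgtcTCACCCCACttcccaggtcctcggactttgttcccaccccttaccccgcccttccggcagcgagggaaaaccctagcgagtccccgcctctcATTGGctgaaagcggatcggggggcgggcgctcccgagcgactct
Mvk: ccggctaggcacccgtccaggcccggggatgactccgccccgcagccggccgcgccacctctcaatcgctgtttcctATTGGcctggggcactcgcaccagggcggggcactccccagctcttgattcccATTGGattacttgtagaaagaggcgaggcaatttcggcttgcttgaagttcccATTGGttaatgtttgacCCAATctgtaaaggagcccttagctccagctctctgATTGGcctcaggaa
Insig1: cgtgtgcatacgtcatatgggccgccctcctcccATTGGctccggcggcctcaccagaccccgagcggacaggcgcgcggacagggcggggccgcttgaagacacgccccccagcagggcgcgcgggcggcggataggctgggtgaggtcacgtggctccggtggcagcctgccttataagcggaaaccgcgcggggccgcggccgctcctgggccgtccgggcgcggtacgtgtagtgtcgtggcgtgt
Fasn: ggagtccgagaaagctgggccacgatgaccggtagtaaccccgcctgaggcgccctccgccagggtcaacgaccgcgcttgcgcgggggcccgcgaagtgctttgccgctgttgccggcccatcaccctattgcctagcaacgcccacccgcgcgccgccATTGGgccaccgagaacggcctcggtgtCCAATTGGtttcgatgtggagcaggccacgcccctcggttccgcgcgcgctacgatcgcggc
The SREBP site of Hmgcs1 began 137 bases before the start site. In Mvk 5 CCAAT boxes were spread over the stretch. In Fasn 3 CCAAT boxes were found, of which 1 in each orientation overlapped at a shared AT.

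The libraries were comparable in scale. FPKM, a fragment count scaled by exon length and by the mapped fragments of the library, had an upper quartile between 33.2 and 34.3 over the tested genes, and the relative depth of the libraries ranged from 1 to 1.41. Mapk8 was at 23.9 and 19.1 FPKM in JNK_WT lines and at 4.30 and 4.27 FPKM in JNK_KO lines, and Mapk9 was at 29.7 and 24.3 against 12.6 and 8.66 FPKM. Both targeted genes were lower in each JNK_KO line, and neither was at 0. All 6 luminal markers were above 1 FPKM in every line. Their summed level was 3265 and 2403 FPKM in JNK_WT 1 and 2 and 1033 and 2015 FPKM in JNK_KO 1 and 3. All 6 had a negative log2 difference (JNK_KO minus JNK_WT, median -0.72). For 2 of them the groups did not overlap, and none was called in the test described below. Of the 6 adipocyte markers, none reached 1 FPKM in any line and Plin1, Lep and Cfd were at 0 throughout. Of the 6 mesenchymal markers, Dcn was at 0.430 and 0.389 FPKM in JNK_WT lines and at 79.7 and 162 FPKM in JNK_KO lines. Pdgfra (0.325 and 0.183 against 24.7 and 7.82 FPKM) and Pdgfrb (0.0404 and 0.194 against 2.17 and 2.99 FPKM) were higher in both JNK_KO lines too. Vim overlapped, at 331 and 47.2 FPKM in JNK_WT and 500 and 159 FPKM in JNK_KO lines. Col1a1 stayed under 1 FPKM, and Col3a1 exceeded it only in JNK_KO 3 (1.33 FPKM). In bulk RNA, fewer cells of a type and less RNA per cell cannot be told apart. The part of these markers in the results below was not tested. No batch was given in the labels.

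The lipid synthesis genes were abundant transcripts in all 4 lines. The median gene of the group stood at the 88.1 percentile of the tested genes by mean level. Sc4mol (now Msmo1, a sterol C4-methyl oxidase) was the highest, at 193 and 157 FPKM in JNK_WT and 167 and 213 FPKM in JNK_KO lines. Acss2, which makes acetyl-CoA from acetate, was the lowest, at 2.96 and 2.51 FPKM in JNK_WT and 3.74 and 4.39 FPKM in JNK_KO lines. Acly, which makes acetyl-CoA from citrate, was between 22.5 and 73.6 times the Acss2 level in FPKM, lowest in JNK_KO 1. After Sc4mol, the order by mean log2 level ran Scd2, Acly, Scd1, Cyp51, Fdps, Sqle and Hmgcs1, and neighbours in that order overlapped in their ranges over the 4 lines. Apart from Acss2 and Tm7sf2, every gene of the group was at 16.4 FPKM or more in each line.

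**Figure D1:**
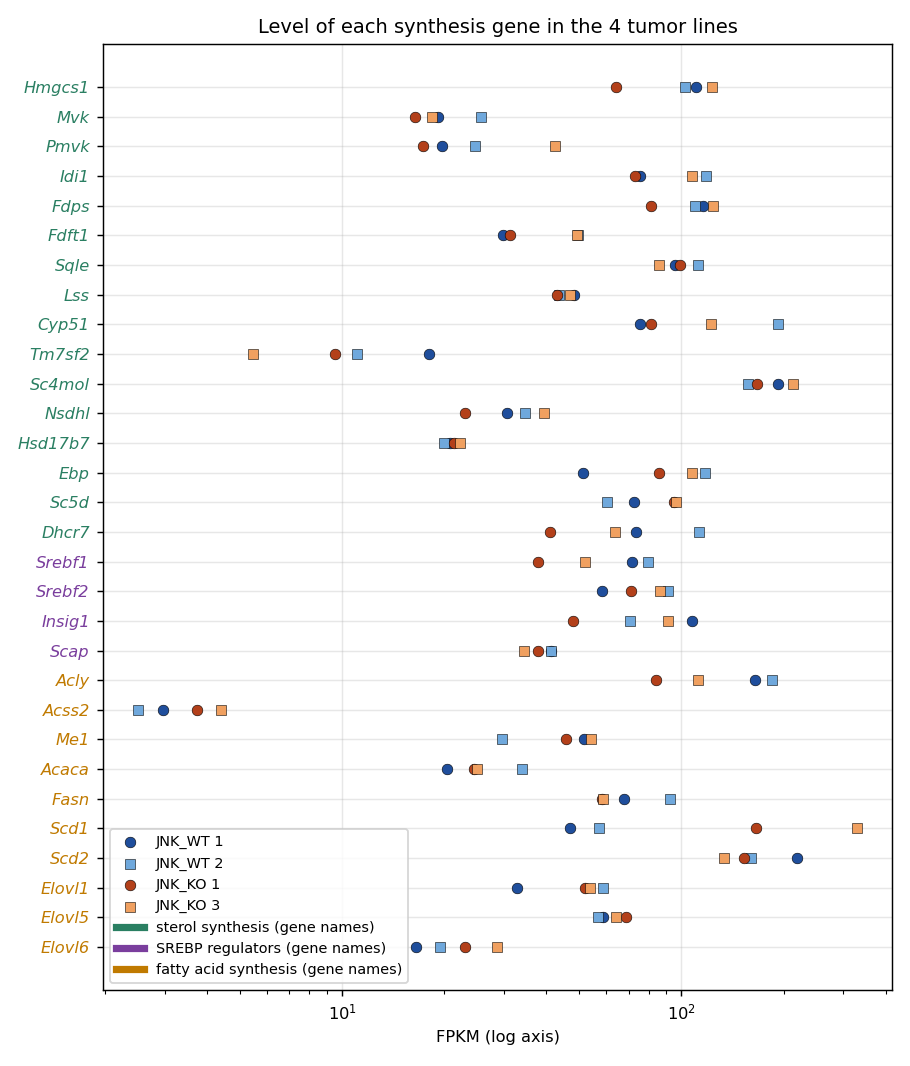
Level of each of the 30 genes in the 4 lines, in FPKM on a log axis, with 1 point per library. Gene names are colored by sterol synthesis, SREBP regulators and fatty acid synthesis, and Scd1 is the gene whose 2 JNK_KO points lie farthest above its 2 JNK_WT points.

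To ask whether loss of JNK was accompanied by altered lipid synthesis transcripts, the genotypes were compared on log2(FPKM + 1) with limma. Differences are JNK_KO minus JNK_WT. A call needed a limma adjusted p-value under 0.05 together with a log2 difference beyond 0.75 in either direction. None of the 30 genes met both, and 0% of the 12998 tested genes were called. At an unadjusted limma p-value under 0.05, 1 gene of the group was higher (Scd1) and 2 were lower (Srebf1 and Acly) in JNK_KO lines, 3 of 30 beside 7.63% of all tested genes. A log2 difference over 0.75 was found for Scd1, beside 9.25% of all genes, and one under -0.75 for Tm7sf2, Dhcr7, Srebf1 and Acly, 4 of 30 beside 6.43% of all genes. Both JNK_KO lines lay above both JNK_WT lines for 6 genes of the group (18.3% of all genes did) and below them for 8 (16.7% of all genes did). The median absolute difference was 0.28 for the group and 0.27 for all tested genes. With 2 lines against 2, the smallest p-value that an exact permutation test can give is 0.333.

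**Figure D2:**
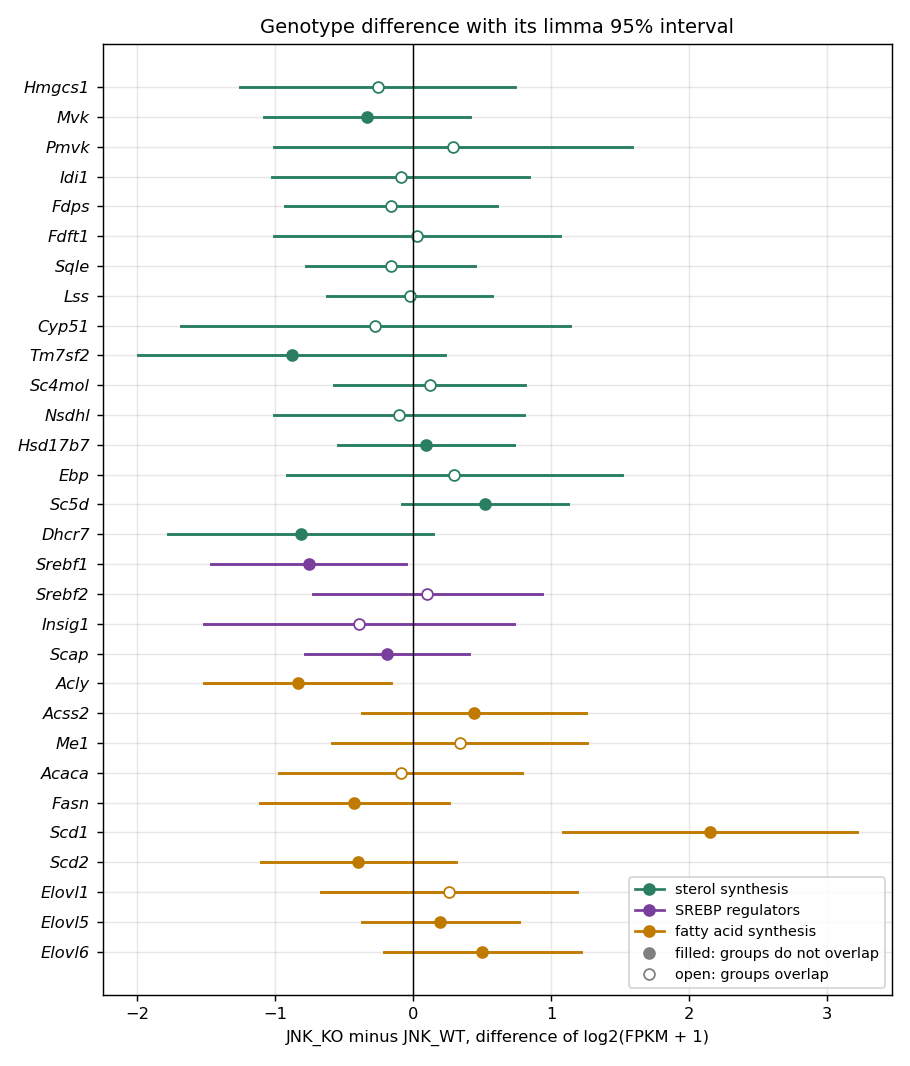
Difference between genotypes for each gene, JNK_KO minus JNK_WT in log2(FPKM + 1), with the limma 95% interval as a bar. Filled points mark genes whose 2 groups of lines do not overlap, and the intervals of Srebf1, Acly and Scd1 leave out 0 before adjustment.

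Within the mevalonate segment, no enzyme differed between genotypes beyond the spread of the lines, and 1 line stood lowest throughout. Hmgcs1, which makes HMG-CoA, was at 111 and 103 FPKM in JNK_WT 1 and 2 and at 64.4 and 123 FPKM in JNK_KO 1 and 3. The JNK_KO lines thus held both the lowest and the highest value, and the log2 difference of -0.26 (SE 0.37) had a 95% interval of -1.25 to 0.74. Fdps, which makes farnesyl diphosphate, had the same layout, at 115 and 110 FPKM in JNK_WT and 81.6 and 124 FPKM in JNK_KO lines. Pmvk, the second of the mevalonate kinases, was at 19.7 and 24.6 FPKM in JNK_WT and at 17.3 and 42.4 FPKM in JNK_KO lines. Its high value belonged to JNK_KO 3 alone. Idi1, which isomerizes isopentenyl diphosphate, was at 75.3 and 118 FPKM in JNK_WT and 72.9 and 107 FPKM in JNK_KO lines. Mvk, the first of these kinases, was the only one of the 5 whose groups did not overlap. It was at 19.2 and 25.6 FPKM in JNK_WT and at 16.4 and 18.4 FPKM in JNK_KO lines, a log2 difference of -0.33 (SE 0.28, limma adjusted p = 0.947). Of its 40 neighbouring genes on chromosome 5, 32 had a negative difference. Their median was -0.20, and -0.14 remained for Mvk after subtraction.

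The squalene and lanosterol steps were close in level between genotypes. Lss, lanosterol synthase, was at 48.3 and 43.4 FPKM in JNK_WT and at 43.1 and 46.9 FPKM in JNK_KO lines, a difference of -0.03 (SE 0.22). Sqle, the squalene epoxidase that controls entry into the sterol ring, was at 95.9 and 112 FPKM against 99.2 and 86.1 FPKM. Fdft1, squalene synthase, was at 29.9 and 49.6 FPKM in JNK_WT and at 31.2 and 49.4 FPKM in JNK_KO lines. In each genotype 1 line had a high and 1 line a low Fdft1 value, and the genotype difference was 0.03 (SE 0.39).

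After lanosterol, single enzymes differed in opposite directions. Tm7sf2, a sterol C14 reductase, was at 18.0 and 11.1 FPKM in JNK_WT and at 9.52 and 5.46 FPKM in JNK_KO lines. Both JNK_KO lines were below both JNK_WT lines, with a log2 difference of -0.88 (SE 0.42, limma adjusted p = 0.772). Dhcr7, which catalyzes the final step to cholesterol, was at 73.3 and 112 FPKM in JNK_WT and at 40.9 and 63.9 FPKM in JNK_KO lines. Its difference was -0.82 (SE 0.36, limma adjusted p = 0.733), with a neighbourhood on chromosome 7 that was lower as well (median -0.31 over 29 neighbouring genes). Sc5d, the sterol C5 desaturase that acts just before Dhcr7, was higher in JNK_KO lines, at 95.01 and 96.2 FPKM against 72.7 and 60.4 FPKM. Its difference of 0.52 (SE 0.23) had a limma adjusted p-value of 0.720. The 3 largest differences of the sterol arm were thus 2 lower and 1 higher, each on a different chromosome.

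The other 5 late enzymes varied more between lines than between genotypes, apart from Hsd17b7. Cyp51, lanosterol demethylase, was at 75.7 and 193 FPKM in the JNK_WT lines and at 81.4 and 122 FPKM in the JNK_KO lines. Ebp, the sterol isomerase, was at 51.5 and 117 FPKM in JNK_WT and at 85.6 and 107 FPKM in JNK_KO lines. For both genes the JNK_WT lines held the lowest and the highest value. Nsdhl, which removes C4 carboxyl groups, was at 30.7 and 34.5 FPKM in JNK_WT and at 23.1 and 39.5 FPKM in JNK_KO lines. Hsd17b7, the ketosteroid reductase of the same complex, was the steadiest gene of the arm, at 20.8 and 19.96 FPKM in JNK_WT and 21.3 and 22.2 FPKM in JNK_KO lines. Its groups did not overlap, with a difference of 0.09 (SE 0.24).

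Across the sterol arm, the gap between the JNK_KO lines was wider and more uniform in sign than the gap between genotypes. A gap between single lines varies more than a difference of group means, so a wider gap is partly built in. The median absolute values were 0.57 between JNK_KO lines and 0.21 between genotypes for sterol genes, beside 0.33 and 0.27 for all tested genes. JNK_KO 3 exceeded JNK_KO 1 for 14 of 16 sterol genes (87.5%), Sqle and Tm7sf2 being the exceptions, while 51.2% of all tested genes were higher in JNK_KO 3. The direction was not particular to this arm, since 8 of 10 fatty acid genes (80%) and 3 of 4 regulators (75%) were higher in JNK_KO 3 too. The median gap was 0.45 for the sterol genes, 0.36 for the regulators, 0.12 for the fatty acid genes and 0.01 for all tested genes on the log2 scale. All 5 mevalonate enzymes were higher in JNK_KO 3, and JNK_KO 1 was the lowest of the 4 lines for each of them. Between the JNK_WT lines, JNK_WT 2 exceeded JNK_WT 1 for 9 of 16 sterol genes (56.2%), beside 49.9% of all genes. The median genotype difference of the 16 genes was -0.10, beside 0.01 for all tested genes. JNK_KO 1 was the line with the lowest summed luminal markers, and 5 of the 6 luminal markers were likewise higher in JNK_KO 3. The summed basal markers had a wider gap, at 30.1 FPKM in JNK_KO 1 and 349 FPKM in JNK_KO 3, and 15.0 and 532 FPKM in JNK_WT 1 and 2. In the JNK_KO lines most of that sum was Krt14 (26.7 and 313 FPKM). Trp63 (1.16 and 6.58 FPKM) and Acta2 (1.70 and 29.0 FPKM) were also higher in JNK_KO 3. Krt5, Mylk and Oxtr stayed under 1 FPKM in both JNK_KO lines. Between JNK_WT 1 and 2, Acta2 went the other way, at 7.36 and 3.19 FPKM. JNK_KO 3 had 1.41 times the relative depth of JNK_KO 1. The part of these in the gap was not tested. These line-to-line gaps have no replicate library within a line and were singled out after the values were seen, so they are given without a test.

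**Figure D3:**
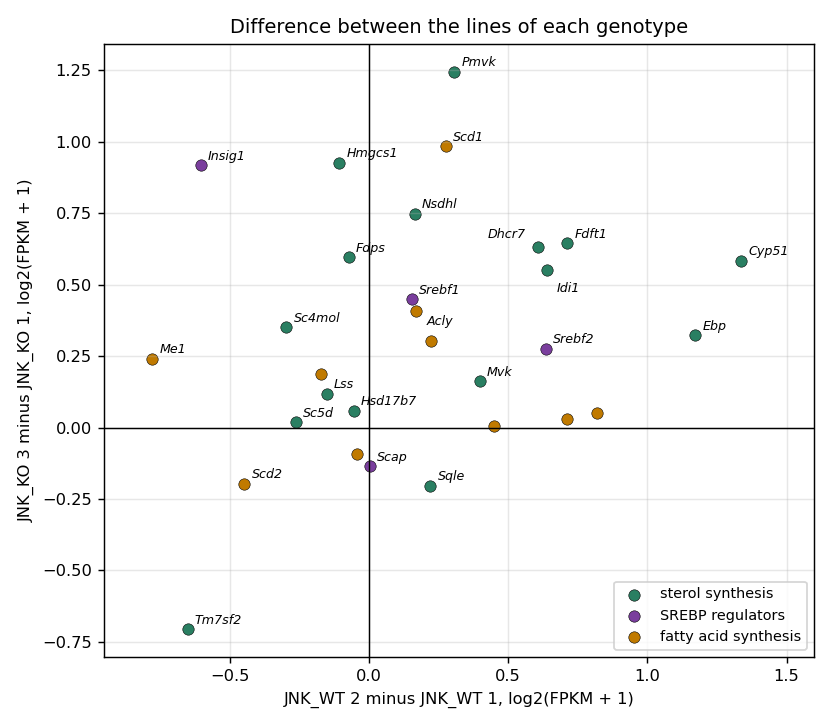
Difference between the 2 JNK_WT lines (horizontal axis) and between the 2 JNK_KO lines (vertical axis) for each gene, in log2(FPKM + 1). Of the 16 sterol genes, 14 lie above 0 on the vertical axis, and 9 lie right of 0 on the horizontal axis. Above 0 on the vertical axis lie also 8 of 10 fatty acid genes and 3 of 4 regulators.

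Among the SREBP regulators, Srebf1 was lower in both JNK_KO lines, whereas the Srebf2 values of the genotypes overlapped. Srebf1 (chromosome 11, 60199089 to 60222581, minus strand) was at 71.6 and 79.8 FPKM in JNK_WT and at 37.8 and 51.9 FPKM in JNK_KO lines. The groups did not overlap, and the log2 difference was -0.76 (SE 0.26, 95% interval -1.46 to -0.05), with a limma adjusted p-value of 0.611. The gene lies in a stretch of chromosome 11 in which 39 of the 40 nearest tested genes had a negative difference, with a median of -0.59. After subtraction of that median, -0.16 remained for Srebf1. The median of the neighbours in each line, relative to the 4-line mean, was 0.13 and 0.48 in JNK_WT and -0.67 and 0.04 in JNK_KO lines. Thus the neighbourhood was lowest in JNK_KO 1, as Srebf1 itself was.

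Srebf2 was at 58.3 and 91.1 FPKM in JNK_WT and at 71.1 and 86.4 FPKM in JNK_KO lines, a difference of 0.10 (SE 0.31) with both JNK_KO values between the JNK_WT values. Scap, the escort of the SREBPs, was at 41.2 and 41.4 FPKM in JNK_WT and at 37.9 and 34.4 FPKM in JNK_KO lines. The groups did not overlap, although the difference was small, at -0.19 (SE 0.22). Insig1, which retains Scap and is itself a target of the SREBPs, was at 108 and 70.6 FPKM in JNK_WT and at 47.9 and 91.4 FPKM in JNK_KO lines. Insig1 thus had its lowest value in JNK_KO 1, and the gap between the JNK_KO lines was 0.92 on the log2 scale. This was not particular to Insig1 and the mevalonate enzymes. JNK_KO 1 was the lowest line for 12 of the 30 genes, beside 3164 of the 12998 tested genes.

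In the fatty acid arm no gene passed adjustment, and both JNK_KO lines lay below both JNK_WT lines for Acly and Fasn and above them for Scd1. Acly (chromosome 11, 100476353 to 100528000, minus strand) was at 164 and 185 FPKM in JNK_WT and at 84.2 and 112 FPKM in JNK_KO lines. Both JNK_KO lines were below both JNK_WT lines by more than the spread within either group, with a difference of -0.84 (SE 0.25, 95% interval -1.51 to -0.16) and a limma adjusted p-value of 0.519. Its 40 neighbours had a median of -0.28, and -0.56 remained for Acly after subtraction. Fasn, fatty acid synthase, was at 67.5 and 92.5 FPKM in JNK_WT and at 58.5 and 58.7 FPKM in JNK_KO lines. Its groups did not overlap, with a difference of -0.43 (SE 0.26, limma adjusted p = 0.863), of which -0.19 remained after subtraction of its neighbours. Acaca, acetyl-CoA carboxylase, was at 20.4 and 34.0 FPKM in JNK_WT and at 24.4 and 24.9 FPKM in JNK_KO lines, so that both JNK_KO values lay between the JNK_WT values.

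Srebf1, Acly, Fasn and Acaca all lie on chromosome 11. The median difference of the 1098 tested genes of that chromosome was -0.20, and its median deviation was 0.35 in JNK_WT 2 and between -0.14 and -0.06 in the other lines. All 4 genes were highest in JNK_WT 2. Gene copy number was not measured in these files, and its part in these values was not tested.

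Of the other suppliers, Me1, the malic enzyme that yields NADPH, was at 51.5 and 29.6 FPKM in JNK_WT and at 45.5 and 54.0 FPKM in JNK_KO lines, with overlapping groups. Acss2 was higher in both JNK_KO lines, with a difference of 0.44 (SE 0.30). Thus the pair of acetyl-CoA suppliers differed in opposite directions, and by FPKM Acly remained far the more abundant.

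The largest difference of the group was that of Scd1, the stearoyl-CoA desaturase that makes oleate from stearate. Scd1 (chromosome 19, 44394455 to 44407879, minus strand) was at 47.0 and 57.1 FPKM in JNK_WT and at 165 and 328 FPKM in JNK_KO lines. Every JNK_KO value was above every JNK_WT value, and the 2 JNK_KO lines differed from each other by 0.98 on the log2 scale. The mean was 52.1 ± 7.18 FPKM (SD, n = 2) in JNK_WT and 247 ± 115 FPKM (SD, n = 2) in JNK_KO lines, a ratio of 4.74. The log2 difference was 2.15 (SE 0.40, 95% interval 1.08 to 3.21), with a limma adjusted p-value of 0.295. It ranged from 1.66 to 2.64 as each line was left out. The neighbours of Scd1 had a median difference of 0.15, and 2.00 remained after subtraction.

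Scd2, the paralog that lies beside Scd1 and makes the same product, had the opposite order. It was at 220 and 161 FPKM in JNK_WT and at 153 and 133 FPKM in JNK_KO lines, a difference of -0.40 (SE 0.26, limma adjusted p = 0.894). By FPKM, Scd2 was the higher of the pair in both JNK_WT lines and Scd1 in both JNK_KO lines. In JNK_KO 1 the lead was narrow, at 165 against 153 FPKM, and neither gene was called. Scd1 made up 17.6% and 26.2% of the summed Scd1 and Scd2 FPKM in JNK_WT lines and 52.0% and 71.2% in JNK_KO lines. The sum itself was 267 and 218 FPKM in JNK_WT and 318 and 461 FPKM in JNK_KO lines. Scd3 and Scd4 were at most 0.105 FPKM in any line. How reads shared by the paralogs were divided is not given in the sources used here, so the split between Scd1 and Scd2 is less certain than their sum.

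**Figure D4:**
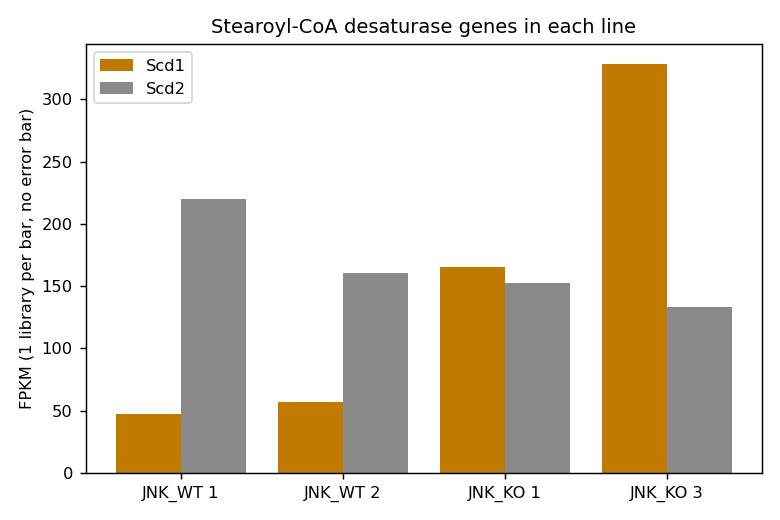
FPKM of Scd1 and Scd2 in each of the 4 lines, with 1 library per bar and no error bar. Scd1 is the lower bar in both JNK_WT lines (47.0 and 57.1 FPKM) and the higher bar in both JNK_KO lines (165 and 328 FPKM).

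Of the 3 elongases, 2 were higher in both JNK_KO lines and 1 overlapped, and none passed adjustment. Elovl6, which extends palmitate to the stearate that Scd1 uses, was at 16.5 and 19.4 FPKM in JNK_WT and at 23.1 and 28.7 FPKM in JNK_KO lines. The groups did not overlap, and the difference was 0.50 (SE 0.27, limma adjusted p = 0.827). Elovl5, which extends polyunsaturated chains, was at 58.6 and 56.8 FPKM against 68.5 and 64.2 FPKM, a difference of 0.20 (SE 0.21) without overlap. Elovl1, which extends very long chains, was at 32.9 and 58.7 FPKM in JNK_WT and at 51.9 and 53.8 FPKM in JNK_KO lines, so that JNK_WT 2 was the highest line. The median difference of the 10 fatty acid genes was 0.23, that of the 4 regulators -0.29 and that of all tested genes 0.01. The fatty acid arm was thus of mixed direction, with 4 genes higher and 3 lower without overlap.

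Other lipid genes were examined in 7 lists of related function, in which no gene was called. Their counts without overlap stand beside 18.3% of all tested genes higher and 16.7% lower, and with 5 to 13 genes a list they are given as a description. In the list of sterol export and its LXR receptors, 2 of 5 tested genes were higher and 2 lower without overlap. Abcg1, a sterol exporter, was at 0.202 and 0.0510 FPKM in JNK_WT and at 4.78 and 4.47 FPKM in JNK_KO lines. Both JNK_WT values were under the filter of 1 FPKM, so Abcg1 entered the test only through its JNK_KO values. Its place among the genes higher without overlap was thus fixed by the filter, and its difference of 2.32 is only a description. Abca1, which loads cholesterol onto lipoprotein, was at 0.350 and 1.65 FPKM against 6.38 and 3.40 FPKM, a difference of 1.59 (SE 0.50, limma adjusted p = 0.543). Both exporters were thus low in JNK_WT lines and higher in both JNK_KO lines, and neither was called. For Abca1 the nearest values of the groups were 1.65 FPKM in JNK_WT 2 and 3.40 FPKM in JNK_KO 3. The lower genes, both chosen after their values were seen, were Lpcat3, a phospholipid acyltransferase, and the receptor gene Nr1h2, with a difference of -0.31. Lpcat3 was at 94.4 and 138 FPKM in JNK_WT and at 58.4 and 74.6 FPKM in JNK_KO lines, a difference of -0.78 (SE 0.30, limma adjusted p = 0.661). It lies on chromosome 6, where its neighbours had a median of -0.73 and the whole chromosome one of -0.59.

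Among the 7 genes of the remaining SREBP machinery, 3 were higher without overlap and none lower. Sec24d, a coat protein of the vesicles that leave the endoplasmic reticulum, was at 3.93 and 3.36 FPKM in JNK_WT and at 22.8 and 12.6 FPKM in JNK_KO lines. Its difference was 1.96 (SE 0.39, limma adjusted p = 0.327). Mbtps2, the second protease that releases the SREBPs, had a difference of 0.41 (SE 0.27).

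Of 13 other fatty acid synthesis genes, 1 was higher and 3 were lower without overlap. Mid1ip1, an activator of acetyl-CoA carboxylase, was at 24.3 and 21.2 FPKM in JNK_WT and at 44.8 and 47.7 FPKM in JNK_KO lines, a difference of 0.99 (SE 0.23, limma adjusted p = 0.413). Fads2, a desaturase of polyunsaturated chains, was at 46.7 and 78.0 FPKM against 38.2 and 30.4 FPKM, a difference of -0.81 (SE 0.34, limma adjusted p = 0.714). Its neighbours Fads1 and Fads3 (chosen after their values were seen) were lower too, at -0.48 and -0.59. The Fads genes and Scd1 all lie on chromosome 19, and differed in opposite directions.

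Of 7 genes of fatty acid uptake and activation, 3 were higher without overlap and none lower. Acsl1, an acyl-CoA synthetase, was at 2.55 and 1.30 FPKM in JNK_WT and at 10.8 and 8.49 FPKM in JNK_KO lines, a difference of 1.89 (SE 0.37, limma adjusted p = 0.325). The fatty acid carrier Fabp5 had a difference of 0.90 (SE 0.54), and its high value of 129 FPKM belonged to JNK_KO 3. Of 10 lipid storage genes, 4 were higher without overlap and none lower. Plin2, which coats lipid droplets, was at 70.1 and 86.0 FPKM in JNK_WT and at 114 and 225 FPKM in JNK_KO lines, a difference of 1.03 (SE 0.40, limma adjusted p = 0.663). Dgat2, which completes triglyceride synthesis, was at 1.16 and 0.374 FPKM against 2.88 and 2.29 FPKM, a difference of 1.05 (SE 0.37, limma adjusted p = 0.625).

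Of 7 genes of fatty acid oxidation, 1, Acadl, was higher without overlap. All 7 had a positive difference with the 4 lines, but 6 of them turned negative when some line was left out, 4 of them without JNK_WT 1. Acadl, a long-chain acyl-CoA dehydrogenase, was at 99.0 and 122 FPKM in JNK_WT and at 154 and 259 FPKM in JNK_KO lines, a difference of 0.86 (SE 0.34, limma adjusted p = 0.673). Cpt2, the inner carnitine palmitoyltransferase of mitochondria, was at 6.31 and 14.9 FPKM against 13.4 and 16.2 FPKM, a difference of 0.54 (SE 0.46) with overlap. The median difference of this list was 0.23, and JNK_WT 1 was the lowest line for 6 of its 7 genes. The 6 further sterol and isoprenoid enzymes had a median of 0.28, with Dhdds, of dolichol synthesis, at 0.73 and Pdss1, of ubiquinone synthesis, at 0.56. Dhdds was without overlap between genotypes, whereas the Pdss1 difference rested on 12.8 FPKM in JNK_KO 1, beside 4.41 FPKM in JNK_KO 3 and 4.92 and 4.79 FPKM in JNK_WT lines.

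**Figure D5:**
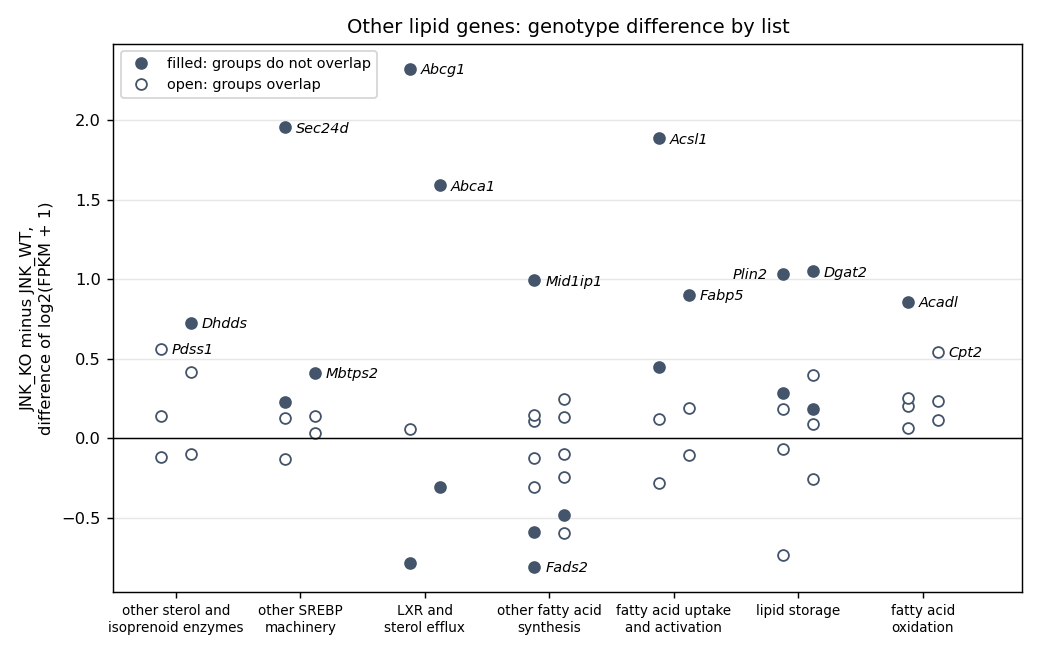
Difference between genotypes (JNK_KO minus JNK_WT, log2(FPKM + 1)) of each tested gene in 7 lists of other lipid genes, with the 2 largest of each list named. Filled points mark genes whose groups do not overlap, and Abcg1 at 2.32, Sec24d at 1.96 and Acsl1 at 1.89 are the highest points. Abcg1 passed the filter on low values only through its JNK_KO values.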

How the data were processed

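RNA from 4 mammary tumor cell lines (JNK_WT replicates 1 and 2, JNK_KO replicates 1 and 3, grouped by their labels) was sequenced in single-end short reads. The authors removed poor reads with Trimmomatic, sampled reads to a similar number per library with seqtk, aligned them to mm10 (GRCm38) with Bowtie2 and TopHat2 2.0.14, and quantified them with Cufflinks 2.2.1. The deposited values are FPKM, with 1 value per gene and library and no pooling; the annotation is not given in the sources used here. How reads that match several genes were divided among paralogs is not stated either. The table held 38741 rows, of which 27 had symbols turned into dates and 1 had no value.

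Genes that reached an FPKM of 1 in 2 or more libraries entered the test, on values of log2(FPKM + 1), in R 4.3.3 with limma 3.58.1 (two-sided, eBayes moderated with a trend on mean level). Adjustment followed Benjamini and Hochberg over 12998 genes, with the study's thresholds (adjusted p-value under 0.05, absolute log2 difference over 0.75). A pseudocount of 1 understates the change of low genes. FPKM are not counts, so no count model was fitted, and no interval for read counts was computed; the relative depth came from the steps between low FPKM values. The p-values and SEs rest on the spread between lines, 2 per group, moderated towards the trend over all tested genes. An SE is therefore not the spread of that gene's own lines alone.

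Positions came from GENCODE M21 (GRCm38), matched by symbol for 12790 tested genes and all 30 members. Neighbours were the 20 tested genes on each side, fewer near chromosome ends. Promoters came from RefSeq (GRCm38.p6). Protein sequences were not used here. The members and lists were chosen with earlier results of these data known. Named genes were all members, the 2 largest absolute differences of each other lipid list, and Mapk8 and Mapk9. A gene of the fatty acid oxidation list is not reported here and was left out of that list. Other pseudocounts, filters, scalings, thresholds, chromosome centring and fits without each line were run as alternatives. Figures were drawn with matplotlib 3.10.9.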

Additional observations from a re-analysis of the deposited data

How the results depend on the processing

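None of the 30 genes was called under any alternative. Over all tested genes, 0 were called as reported (992 had an unadjusted limma p-value under 0.05), against 10 with a pseudocount of 0.1, 14 with 0.5, 14 without the intensity trend and 25 at an adjusted p-value under 0.1. The median difference of the fatty acid genes, 0.23, was 0.20 with a mean FPKM of at least 5 and 0.084 after chromosome centring, and ranged from 0.035 to 0.22 as each line was left out, the lowest without JNK_WT 1. That of the regulators, -0.29, ranged from -0.49 (without JNK_KO 3) to -0.095 (without JNK_KO 1). That of the sterol genes, -0.10, ranged from -0.35 to 0.16, and was positive without JNK_KO 1.

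Chromosome centring turned the sign of 5 small differences, giving Fdft1 -0.19, Lss 0.012, Sc4mol -0.038, Hsd17b7 -0.018 and Acaca 0.12. Subtraction of the neighbours, chosen after seeing the data, turned Fdft1 to -0.38, Lss to 0.044 and Srebf2 to -0.047; the construction of both alternatives moves a gene by its surroundings. Leaving out 1 line turned the sign of 15 members and of Pdss1 and Cpt2. Their ranges were Hmgcs1 -0.72 to 0.21, Pmvk -0.33 to 0.91, Idi1 -0.41 to 0.23, Fdps -0.46 to 0.14, Fdft1 -0.33 to 0.38, Lss -0.10 to 0.049, Cyp51 -0.94 to 0.39, Sc4mol -0.057 to 0.29, Nsdhl -0.48 to 0.27, Ebp -0.29 to 0.89, Srebf2 -0.21 to 0.42, Insig1 -0.85 to 0.066, Me1 -0.052 to 0.73, Acaca -0.45 to 0.26, Elovl1 -0.15 to 0.67, Pdss1 -0.11 to 1.24 and Cpt2 -0.015 to 1.10. Without a line, the remaining line of its group was assumed to vary like the other group. The Scd1 adjusted p-value ranged from 0.289 to 0.734 over the other settings of the limma fit with all lines. The count of sterol genes higher in JNK_KO 3 than in JNK_KO 1, 14 of 16, was 13 under upper-quartile scaling, 13 under quantile normalization and 11 after chromosome centring, alternatives chosen after seeing the data. A paired fit was not run, since 1 is the only number that both groups carry. With 2 lines per group and 1 library per line, even the Scd1 difference of 2.15 did not pass adjustment, and an uncalled gene is not shown to be alike in the 2 genotypes.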
